A study of Mus musculus with 3 samples.

Results

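Bone morphogenetic proteins (BMPs) and the closely related growth and differentiation factors (GDFs) are secreted ligands, and the genes described here are *Bmp2*, *Bmp3*, *Bmp4*, *Bmp5*, *Bmp6*, *Bmp7*, *Bmp8a*, *Gdf5*, *Gdf6*, and *Gdf10*. The list is by name, not by level, and all 10 genes were found by symbol among the 32285 genes of the deposited data. Their transcripts were counted in single cells of fracture callus from untreated C57BL/6 mice, in 1 library each from day 7, day 10, and day 14 after a fracture of the femur. Callus freed of muscle and marrow was digested with collagenase, and live cells without CD45, CD31, and TER119 on their surface were sorted for sequencing. By their labels the 3 groups share strain, injury, and sort and differ by time, and the study used male and female mice without separating them, while the number, age, and sex of the mice behind each library are not given. Each day has 1 library, so day and library cannot be told apart, no p-value is given, and every interval below covers counting error only.

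BMPs and GDFs act as dimers that bring type I and type II receptor kinases together, and the receptors then activate SMAD transcription factors. Secreted antagonists such as noggin and gremlin bind the ligands and keep them from the receptors. In a healing fracture, a cartilage template forms, its chondrocytes enlarge (hypertrophic chondrocytes, marked by *Col10a1*), and bone replaces the cartilage, while other bone forms directly under the periosteum. BMP2 is known to be needed in the limb for fracture repair to begin.

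Cells were grouped by single genes, without clustering. A cell without a UMI (unique molecular identifier, the tag that marks 1 captured mRNA molecule) of *Ptprc*, the gene of CD45, was called high for *Aspn*, *Cnmd*, *Ifitm5*, or *Rgs5* when that gene made up at least 10 of every 10000 UMIs of the cell, and for *Col10a1* at 50 of every 10000, with at least 3 UMIs in each case. *Aspn* marks fibroblastic osteoprogenitors, *Cnmd* cartilage, *Ifitm5* osteoblasts, and *Rgs5* pericytes. Cells high for *Cnmd* and *Col10a1* together form a group of their own (*Cnmd*/*Col10a1*-high), and cells high for any other pair were set apart. Cells high for none of the 5 genes are called ungated. At day 10 there were 1593 *Aspn*-high, 2499 *Cnmd*-high, 165 *Cnmd*/*Col10a1*-high, 436 *Col10a1*-high, 75 *Ifitm5*-high, and 47 *Rgs5*-high cells. At day 14 the numbers were 3622, 1607, 189, 1280, 252, and 127, respectively. The level of a gene is its UMIs summed over the cells of a group, per 1000000 UMIs of those cells (CPM, counts scaled to that total), with an exact Poisson 95% interval.

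The day 7 library stood apart. Of its 7017 cells within the limits on quality, 6570 (93.6%) held a *Ptprc* UMI although the sort was against CD45, and their summed level of 5 neutrophil markers was 286108 CPM. The day 10 library had 6 such cells among 6593, and the day 14 library had 173 among 9853. Day 7 therefore gave 59 *Cnmd*-high cells and 22, 2, 6, 1, and 0 cells in the *Aspn*, *Cnmd*/*Col10a1*, *Col10a1*, *Ifitm5*, and *Rgs5* groups, and among these groups only the *Cnmd*-high cells were set against the rest of their library, which at day 7 is the few cells of the other groups. The groups of day 10 and day 14 carried the markers of their labels. Summed over 7 osteoblast markers, the *Ifitm5*-high cells had 125220 and 118269 CPM at day 10 and day 14, against at most 36517 CPM in any other gated group. Over 5 osteoprogenitor markers the *Aspn*-high cells had 12473 and 11668 CPM, against at most 2674 CPM in any other gated group. Both lists hold the gene that set the group, so part of each sum was fixed by the grouping. *Ifitm5* alone gave 1951 and 2536 CPM of these sums, and *Aspn* alone gave 4309 and 4842 CPM. The *Cnmd*-high and *Cnmd*/*Col10a1*-high cells had 53046 to 68872 CPM of 7 chondrocyte markers, *Cnmd* among them, and the *Col10a1*-high cells had 26107 and 21252 CPM. The *Col10a1*-high cells also had 31527 and 20686 CPM of the osteoblast markers, of which *Ibsp* alone gave 28395 and 18184 CPM. *Ibsp* likewise gave 33369 of the 36517 CPM named above, from the *Cnmd*/*Col10a1*-high cells of day 14. Over 4 hypertrophic chondrocyte markers they had 66892 and 65608 CPM, of which *Col10a1* gave 30304 and 26981 CPM. Over 5 pericyte markers the *Rgs5*-high cells had 11021 and 11179 CPM, of which *Rgs5* gave 9822 and 10060 CPM. Neutrophil markers summed to between 0.766 and 193 CPM in the groups of these later days, and 3 endothelial markers to between 0.766 and 5.09 CPM. Libraries shared 29, 42, and 35 cell barcodes in pairs, and 5 barcodes occurred in all 3.

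The ligands divided by cell group. The *Col10a1*-high cells held far more of the *Bmp2* counts than of all counts, and the *Ifitm5*-high cells far more of those of *Bmp3* (26.3% and 30.9% at day 10 and day 14) and *Bmp4* (18.6% and 24.2%), in 1.15% and 2.49% of the UMIs. The ungated cells, with 16.1% and 18.5% of the UMIs, held a larger part of both, 45.4% and 33.9% for *Bmp3* and 54.9% and 49.8% for *Bmp4*. *Bmp2*, *Bmp6*, *Bmp8a*, and *Gdf5* were at least 2-fold higher in the *Col10a1*-high cells than in all other gated cells on day 10 and again on day 14. *Bmp3*, *Bmp4*, and *Bmp8a* stood out in the *Ifitm5*-high cells on both days, *Gdf10* in the *Cnmd*-high cells, and *Bmp6* also in the *Cnmd*/*Col10a1*-high cells. The *Aspn*-high cells had no ligand that was at least 2-fold higher than in the other gated cells on either day. *Gdf6* was all but absent from the counts. Of the 9 detected ligands, 6 had the same highest group on both days among the 5 groups with at least 50 cells on each. This count leaves out the *Rgs5*-high and the ungated cells, and the matching share of all genes was not counted. Calls were made at 2-fold with at least 20 UMIs over the cells compared, and the share of all genes called the same way is given in parentheses where a count in a comparison is first made.

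**Figure D1:**
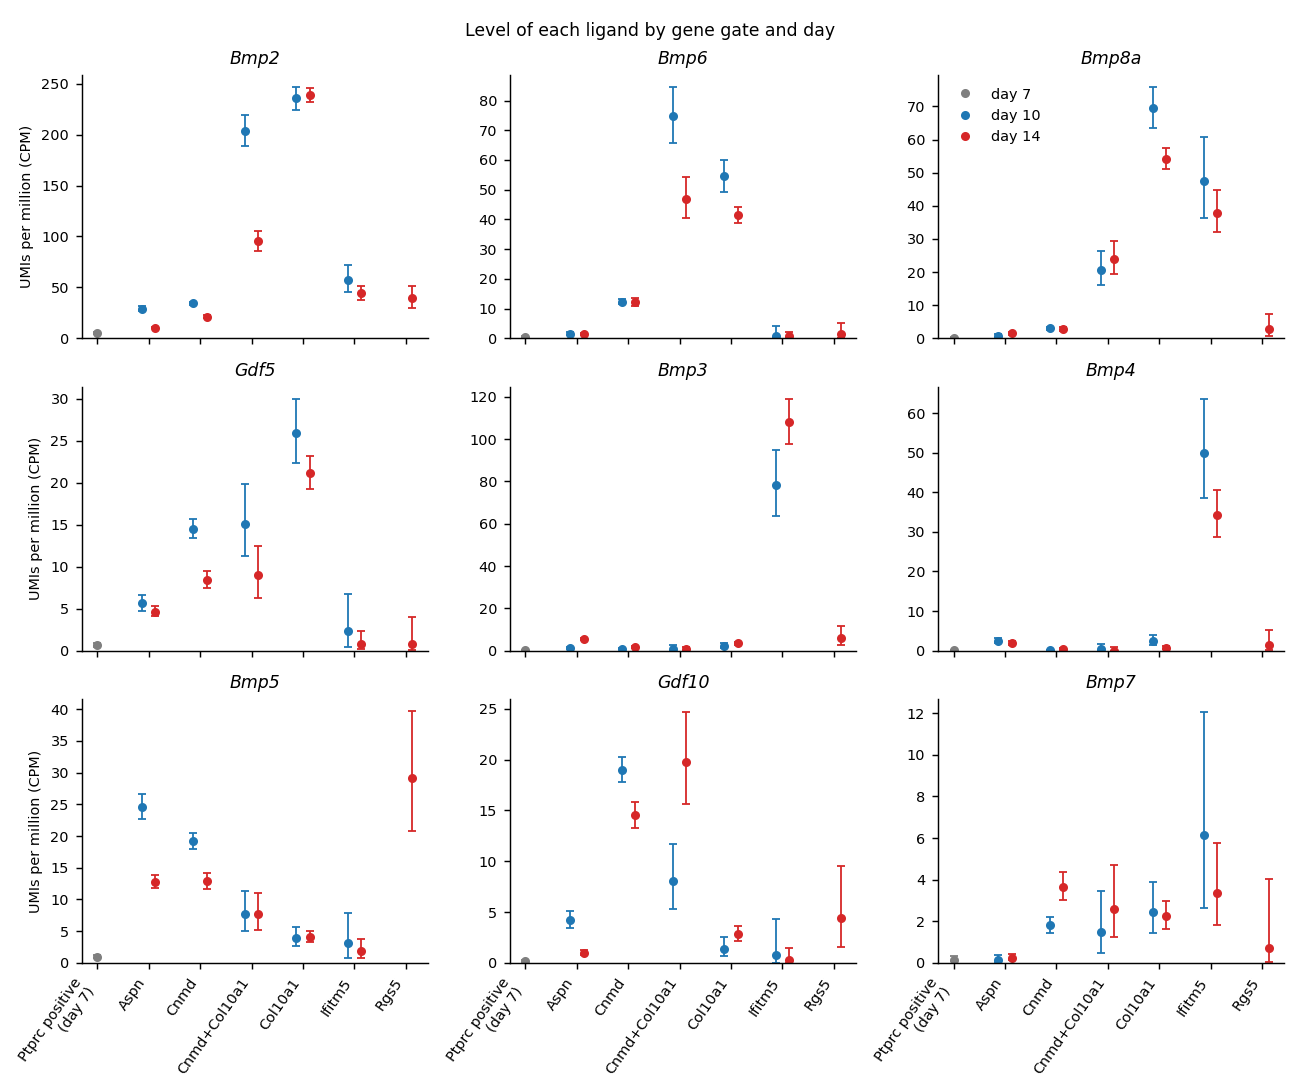
Level of 9 ligands (y axis, CPM) by group of cells (x axis) at day 7 (gray, *Ptprc* positive cells only), day 10 (blue), and day 14 (red), for groups of at least 50 cells, with bars for exact Poisson 95% intervals. *Bmp2* reached 236 and 239 CPM in *Col10a1*-high cells at day 10 and day 14, and *Bmp3* reached 78.2 and 108 in *Ifitm5*-high cells.

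In the *Col10a1*-high cells, 4 of 9 ligands were called higher on both days, against 6.42% of 14697 genes (11.4% at day 10 and 9.87% at day 14, taken alone). The median log2 ratio to the other gated cells was 0.91 over the ligands and -0.01 over all genes at day 10, and 0.40 and -0.16 at day 14. *Bmp2* (chr2:133552159-133562885, plus strand, mouse build GRCm38), the ligand best known for inducing bone, had 1725 UMIs there at day 10, or 236 CPM (95% CI, 225 to 247). The 5128 UMIs of day 14 gave 239 CPM (95% CI, 232 to 246). The other gated groups with at least 50 cells at day 10 had 204 CPM (*Cnmd*/*Col10a1*), 57.5 CPM (*Ifitm5*), 34.2 CPM (*Cnmd*), and 29.1 CPM (*Aspn*). Each step in this order was larger than counting error, but in *Cnmd*/*Col10a1*-high cells 70 of the 688 UMIs lay in 1 cell. At day 14 the order was the same, at 95.5, 44.2, 21.1, and 10.6 CPM. The *Rgs5*-high cells, few in number, had 53.7 CPM at day 10 on 33 UMIs and 39.3 CPM at day 14 on 54 UMIs. The ungated cells had 62.3 and 57.8 CPM. The *Bmp2* level in *Col10a1*-high cells was 5.82-fold that of the other gated cells at day 10 (log2 2.54; 95% CI, 2.46 to 2.63) and 12.1-fold at day 14 (log2 3.60; 95% CI, 3.52 to 3.68). The *Col10a1*-high cells held 57.9% of all *Bmp2* UMIs of day 14 in 13.9% of the UMIs, and 27.5% in 6.44% at day 10. The intervals of *Bmp2* in this group overlapped between the days, while the levels of the *Aspn*-high, *Cnmd*-high, and *Cnmd*/*Col10a1*-high cells were lower at day 14 beyond counting error.

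*Bmp6* (chr13:38345107-38500302, plus strand), a ligand known from maturing cartilage, had 74.7 CPM (95% CI, 65.8 to 84.5) in *Cnmd*/*Col10a1*-high and 54.5 CPM (95% CI, 49.3 to 60.1) in *Col10a1*-high cells at day 10. At day 14 the levels were 47.0 and 41.5 CPM, and these did not differ beyond counting error (log2 0.18; 95% CI, -0.06 to 0.41). *Cnmd*-high cells had 12.4 and 12.2 CPM, *Aspn*-high cells had 1.44 and 1.38 CPM, and the ungated cells had 17.2 and 13.6 CPM. Among the gated groups, the gene was therefore read in cells with *Col10a1*, at a lower level in other cartilage cells, and at a still lower level in *Aspn*-high cells, on 35 and 70 UMIs. In *Ifitm5*-high cells 1 and 3 UMIs were counted, at or below the 3 counts taken as the floor. Its level in *Col10a1*-high cells was 4.79-fold (day 10) and 5.82-fold (day 14) that of the other gated cells. In *Cnmd*/*Col10a1*-high cells it was the 1 of 9 ligands called higher on both days (2.27% of genes), at 5.93-fold and 3.81-fold. *Bmp2* (3.996-fold) and *Bmp8a* (2.34-fold) were called there at day 10 too (5.97% of genes), and *Gdf10* (3.65-fold) at day 14 (5.45% of genes).

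*Bmp8a* (chr4:123312645-123343252, minus strand) is a ligand studied mostly in the germline. Day 10 gave 69.5 CPM (95% CI, 63.6 to 75.8) in the *Col10a1*-high cells. Day 14 gave 54.2 CPM (95% CI, 51.1 to 57.4), and the levels were 18.3-fold and 12.2-fold that of the other gated cells. The *Ifitm5*-high cells followed with 47.5 and 38.0 CPM, then the *Cnmd*/*Col10a1*-high cells with 20.8 and 23.9 CPM. *Cnmd*-high cells had 2.97 and 2.89 CPM and *Aspn*-high cells 0.824 and 1.46 CPM. The ungated cells had 23.9 and 23.6 CPM and held 34.5% and 28.9% of the *Bmp8a* UMIs, in 16.1% and 18.5% of all UMIs. Among the gated groups, *Bmp8a* was thus high in late cartilage cells and in osteoblasts and low in *Cnmd*-high and *Aspn*-high cells. Its near copy *Bmp8b* had 2 UMIs at day 10 and 4 at day 14 over all gated cells, and *Bmp8a* overlaps *Oxct2a* on the same strand, so reads that fit either gene are uncertain.

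*Gdf5* (chr2:155941023-155945367, minus strand), a ligand known from joint formation, differed less between groups. *Col10a1*-high cells of day 10 had 25.9 CPM (95% CI, 22.4 to 29.9), and those of day 14 had 21.2 CPM (95% CI, 19.3 to 23.2). *Cnmd*/*Col10a1*-high cells (15.1 and 8.99 CPM) and *Cnmd*-high cells (14.5 and 8.39 CPM) were alike within counting error on each day, and *Aspn*-high cells had 5.61 and 4.64 CPM. The ungated cells had 17.5 and 12.6 CPM. The ratio of the *Col10a1*-high to the other gated cells was 2.27-fold at day 10 and 3.55-fold at day 14. The day 10 ratio was just above the limit and fell to 0.97 on the log2 scale when cells high for another pair were kept in each of their groups. The 59 *Cnmd*-high cells of day 7 had 32.3 CPM of *Gdf5* (95% CI, 23.1 to 44.0), the 1 of 5 ligands called higher there than in the other gated cells of that library (6.99% of genes), where 4 UMIs gave 6.85 CPM. *Bmp2* was the 1 called lower (13.6% of genes), at 43.6 against 123 CPM, with 55 of the UMIs on the other side in 6 *Col10a1*-high cells.

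The *Col10a1*-high cells were then divided by *Ihh*, the hedgehog ligand of prehypertrophic and hypertrophic chondrocytes, and *Mmp13*, the collagenase of late hypertrophic chondrocytes, a division chosen after the levels above were seen. Cells were taken as *Ihh* positive at 2 and as *Mmp13* positive at 10 of every 10000 UMIs. At day 10 there were 103 cells with *Ihh* alone, 193 with both, 106 with *Mmp13* alone, and 34 with neither, and at day 14 there were 385, 491, 267, and 137. *Bmp2* had 402 CPM (95% CI, 373 to 433) in cells with *Ihh* alone, 218 CPM with both, and 108 CPM (95% CI, 92.5 to 124) with *Mmp13* alone at day 10. At day 14 the levels were 325, 225, and 123 CPM, so the order held on both days and no interval overlapped another. *Bmp6* followed the same order, at 115, 41.3, and 11.8 CPM at day 10 and 58.7, 38.1, and 13.3 CPM at day 14. *Bmp8a* was instead highest in the cells with both genes, at 82.0 and 70.3 CPM, against 59.7 and 44.1 CPM with *Ihh* alone and 62.1 and 53.5 CPM with *Mmp13* alone. *Gdf5* lay between 18.4 and 24.2 CPM in these 3 sets but was higher in cells with neither gene. These had 62.4 CPM (95% CI, 43.2 to 87.2) at day 10, and the 137 cells of day 14 had 31.7 CPM (95% CI, 24.6 to 40.2). *Nog*, the gene of the antagonist noggin, was also higher with *Ihh* alone, at 100.4 and 89.6 CPM, than with *Mmp13* alone, at 33.1 and 36.6 CPM.

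**Figure D2:**
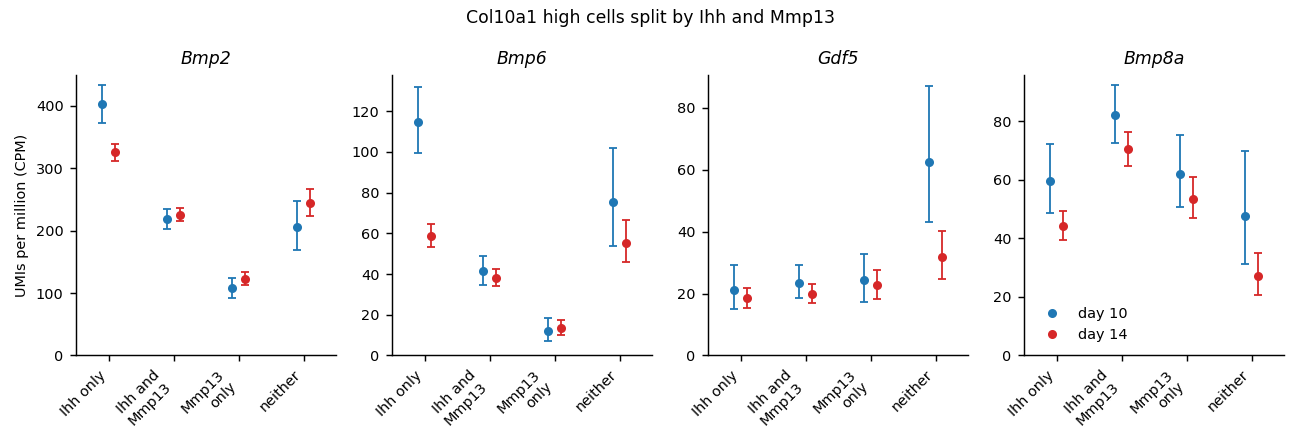
Level of *Bmp2*, *Bmp6*, *Gdf5*, and *Bmp8a* (y axis, CPM) in the *Col10a1*-high cells of day 10 (blue) and day 14 (red), divided by *Ihh* and *Mmp13* (x axis), with bars for exact Poisson 95% intervals. *Bmp2* stepped down from 402 to 218 to 108 at day 10 from cells with *Ihh* alone to both genes to *Mmp13* alone, and *Bmp8a* was highest with both genes at 82.0.

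In the *Ifitm5*-high cells, 3 of 9 ligands were called higher on both days, against 4.06% of genes. At day 10 *Bmp7* was called too (9.2% of genes that day) on 8 UMIs, and at day 14 its log2 ratio of 1.00 on 13 UMIs fell just short of the limit. The median log2 ratio over the ligands was 0.02 at day 10 and -0.46 at day 14, beside -0.16 and -0.34 over all genes. *Bmp3* (chr5:98854415-98884396, plus strand), known as an antagonist of osteogenic BMPs that lowers bone density, had 78.2 CPM (95% CI, 63.7 to 94.9) in the 75 cells of day 10. The 252 cells of day 14 had 108 CPM (95% CI, 97.8 to 119). No other gated group exceeded 2.05 CPM at day 10 or 5.82 CPM at day 14, and the ratio to the other gated cells was 74.3-fold (log2 6.22; 95% CI, 5.79 to 6.64) and 29.3-fold (log2 4.87; 95% CI, 4.67 to 5.07). *Bmp4* (chr14:46383520-46390669, minus strand), an osteogenic BMP closely related to BMP2, had 49.8 CPM (95% CI, 38.4 to 63.5) and 34.3 CPM (95% CI, 28.7 to 40.7). In the other gated groups *Bmp4* was at or below 2.46 CPM on either day, and its ratios to the other gated cells were 50.3-fold and 30.8-fold. The ungated cells had 10.47 and 9.50 CPM of *Bmp4* and 9.59 and 15.9 CPM of *Bmp3*. *Bmp8a*, described above, was 5.43-fold and 2.96-fold higher in *Ifitm5*-high than in the other gated cells. *Bmp5*, *Bmp6*, *Gdf5*, and *Gdf10* were at least 2-fold lower in the *Ifitm5*-high cells on each day (19.5% and 24.1% of genes), with 1 to 7 UMIs each. *Bmp2* was neither, at 57.5 and 44.2 CPM against 57.1 and 61.2 CPM in the other gated cells.

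*Bmp4* and *Bmp8a* were both high in the *Ifitm5*-high cells and only *Bmp8a* was high in the *Col10a1*-high cells, so the 250 bases before their start sites are shown side by side. The sequences are RefSeq's for GRCm38.p6, 5′ to 3′ on the strand of the gene, and cover chr14:46390670-46390919 (minus) and chr4:123343253-123343502 (minus). Motifs were searched on both strands and compared with 32536 promoter windows of this length. RUNX factors, which direct bone and cartilage genes, are known to bind TGTGGT and the closely related TGCGGT, and 18.5% of promoters hold at least 1 of these forms. GGCGCC, a motif of SMAD factors, occurs in 9.65% of promoters. ACAAAG, a motif of SOX factors such as the cartilage factor SOX9, occurs in 16.5%, and the core promoter motif TATAAA in 12.3%. Capitals mark a match, and the only match is ACAAAG in *Bmp8a*, beginning at position -160 from the start.
Bmp4: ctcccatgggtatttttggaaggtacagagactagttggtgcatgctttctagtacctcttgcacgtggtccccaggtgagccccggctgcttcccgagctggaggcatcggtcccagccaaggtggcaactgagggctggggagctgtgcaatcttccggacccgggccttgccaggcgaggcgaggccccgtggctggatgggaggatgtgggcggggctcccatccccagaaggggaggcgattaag
Bmp8a: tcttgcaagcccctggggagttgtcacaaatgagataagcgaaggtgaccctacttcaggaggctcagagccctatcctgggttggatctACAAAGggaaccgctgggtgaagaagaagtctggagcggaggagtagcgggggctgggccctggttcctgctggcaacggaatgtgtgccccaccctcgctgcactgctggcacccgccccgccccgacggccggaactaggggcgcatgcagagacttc
The 2 windows are alike in base composition, with 63.2% and 62.0% G and C and with 11 and 12 CG pairs, respectively. A match is a run of letters and not a shown binding site, and its absence says only that these letters are not in the window.

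*Gdf10* (chr14:33923587-33937983, plus strand), a relative of *Bmp3* also called BMP3B, was the 1 of 9 ligands called higher in the *Cnmd*-high cells on both days, against 3.01% of genes. It had 19.0 CPM (95% CI, 17.8 to 20.3) on the earlier day and 14.5 CPM (95% CI, 13.3 to 15.9) on the later, or 4.96-fold and 6.09-fold the level of the other gated cells. *Cnmd*-high cells held 74.0% of all *Gdf10* UMIs of day 10 in 43.3% of the UMIs, and 52.6% in 21.7% at day 14. At day 14 the highest level was in *Cnmd*/*Col10a1*-high cells, 19.8 CPM (95% CI, 15.6 to 24.7), where day 10 had 8.004 CPM. *Col10a1*-high cells without high *Cnmd* had 1.37 and 2.80 CPM and *Ifitm5*-high cells 0.766 and 0.260 CPM. *Gdf10* was thus counted mostly in *Cnmd*-high cartilage cells. *Bmp2*, *Bmp3*, *Bmp4*, and *Bmp8a* were at least 2-fold lower in these cells on each day (18.5% and 19.6% of genes), *Bmp3* at 0.855 and 1.55 CPM.

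*Bmp5* (chr9:75775364-75900310, plus strand) is the gene behind the short ear mutation of mice and is known from perichondrium and cartilage condensations. It had 24.6 CPM (95% CI, 22.6 to 26.6) in *Aspn*-high and 19.2 CPM (95% CI, 18.0 to 20.5) in *Cnmd*-high cells at day 10. At day 14 these were 12.8 and 12.9 CPM, equal within counting error. The 127 *Rgs5*-high cells of day 14 had 29.1 CPM (95% CI, 20.8 to 39.6), 2.77-fold the other gated cells (18.8% of genes were called higher in this group), and the 47 cells of day 10 had 19.5 CPM on 12 UMIs. *Bmp6*, *Bmp8a*, and *Gdf5* were called lower in the *Rgs5*-high cells (13% of genes), on 1 to 4 UMIs each. *Bmp5* in *Col10a1*-high cells was at 3.96 and 4.10 CPM, lower than in the other gated cells like *Gdf10* on both days and *Bmp3* and *Bmp4* at day 14 (16.7% and 18.5% of genes), and *Ifitm5*-high cells had 3.07 and 1.82 CPM. The ungated cells had 25.5 and 12.5 CPM at day 10 and day 14. Among the gated groups, *Bmp5* therefore had its higher levels in *Aspn*-high, *Cnmd*-high, and *Rgs5*-high cells and its lower levels in the groups where *Bmp2* and *Bmp3* were high. It shares its strand with the overlapping *Gm47723*.

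*Gdf10* and *Bmp5* are shown with the same 250 bases, since they were counted in the *Cnmd*-high cells and, unlike *Bmp4* and *Bmp8a*, were low in the *Ifitm5*-high cells. Their windows are chr14:33923337-33923586 (plus) and chr9:75775115-75775364 (plus), and none of the motifs above occurs in either. *Bmp2*, *Bmp3*, *Bmp7*, *Gdf5*, and *Gdf6* have no entry in the table used, and the start given there for *Bmp6* is 609 bases from the annotated one, so it is not shown.
Gdf10: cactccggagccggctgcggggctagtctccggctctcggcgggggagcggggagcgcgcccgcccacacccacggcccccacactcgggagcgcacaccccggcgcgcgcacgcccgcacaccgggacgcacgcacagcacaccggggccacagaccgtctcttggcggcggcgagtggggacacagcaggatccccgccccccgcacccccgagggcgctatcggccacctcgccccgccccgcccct
Bmp5: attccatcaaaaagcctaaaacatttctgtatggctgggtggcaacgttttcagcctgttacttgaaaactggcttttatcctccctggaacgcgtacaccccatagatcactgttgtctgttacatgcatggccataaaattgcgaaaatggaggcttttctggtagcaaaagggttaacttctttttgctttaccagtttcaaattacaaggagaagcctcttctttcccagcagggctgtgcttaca
They differ in composition, with 78.8% G and C and 35 CG pairs for *Gdf10* against 42.8% and 4 for *Bmp5*.

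*Bmp7* (chr2:172868012-172940321, minus strand), an osteogenic BMP with a known role in the kidney, was counted sparsely, with 171 UMIs at day 10 and 298 at day 14 over all cells. Its levels were 6.13 CPM (95% CI, 2.65 to 12.1) in *Ifitm5*-high and 1.81 CPM in *Cnmd*-high cells at day 10, and 3.38 and 3.66 CPM at day 14. *Aspn*-high cells lay lower, at 0.124 and 0.256 CPM, and among the 4 highest groups no step from one to the next was larger than counting error. Groups farther apart in the order did differ, since the interval of the *Cnmd*-high cells at day 10 (1.45 to 2.23) lay below that of the *Ifitm5*-high cells, and at day 14 the *Cnmd*-high interval (3.04 to 4.37) lay above that of the *Col10a1*-high cells (1.65 to 2.97). In *Cnmd*-high cells the ratio to the other gated cells was 3.501-fold at day 14, above the limit (4.28% of genes), and 0.96 on the log2 scale at day 10, just below it. *Gdf6* (chr4:9844372-9862345, plus strand), a ligand of joint and skull development, had 1 UMI in all cells kept, in an ungated cell of day 14. Its 0 UMIs in the gated cells allow a level of up to 1.65, 0.0349, and 0.0261 CPM at day 7, day 10, and day 14, from 3 counts.

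In the *Aspn*-high cells, 7 of 9 ligands were at least 2-fold lower than in the other gated cells at day 10 (9.24% of genes) and 6 at day 14 (10.3%), and 0 were higher on both days (12% of genes). The median log2 ratio was -1.46 and -3.25 over the ligands and 0.28 and 0.26 over all genes. *Bmp2* there was at 29.1 and 10.6 CPM and *Bmp6*, *Bmp7*, and *Bmp8a* were between 0.124 and 1.46 CPM. *Bmp4* and *Bmp5* were not called, with log2 ratios of 0.70 and 0.58 at day 10 and -0.40 and 0.46 at day 14. Within these cells, overlapping subsets were taken by *Scx* (a tendon factor), *Ctsk* (a marker of a periosteal progenitor), and *Abi3bp*. *Bmp2* was at 34.0 CPM in the *Scx* subset and 21.9 CPM in the *Abi3bp* subset at day 10, and at 11.3 and 6.52 CPM at day 14, with 24.96 and 8.90 CPM in the *Ctsk* subset. *Bmp3* at day 14 ran the other way, with 2.76 CPM (95% CI, 1.99 to 3.73) in the *Scx* subset of 1027 cells and 7.47 CPM (95% CI, 6.51 to 8.52) in the *Abi3bp* subset of 2090 cells. *Gdf10* at day 10 was also higher in the *Abi3bp* subset (6.71 CPM) than in the *Scx* subset (3.23 CPM).

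Cells high for *Aspn* and *Cnmd*, 535 at day 10 and 360 at day 14, were the largest set held apart. *Gdf5* in them was at 13.7 and 13.1 CPM and *Gdf10* at 9.41 and 8.96 CPM, between the *Aspn*-high and *Cnmd*-high cells in the case of *Gdf10*. *Bmp2* was at 18.9 and 7.08 CPM, below both groups. Whether such cells are droplets with 2 cells was not tested, since no doublet caller was run and only the upper limit on genes per cell bears on it.

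Between day 10 and day 14, the levels within a group differed at least 2-fold in 7 cases, each a ligand in 1 group. In *Aspn*-high cells, *Bmp2* fell by 1.46 on the log2 scale (95% CI, -1.63 to -1.30) and *Gdf10* fell by 2.10 (95% CI, -2.63 to -1.61), 2 of 8 ligands where 3.27% of genes were called lower. *Bmp3* was higher by 2.16 (95% CI, 1.62 to 2.78) in the same cells, from 1.20 to 5.41 CPM, where 2.87% of genes were called higher. The median of all genes moved by -0.02 in this group and by -0.03 to -0.12 in the other groups. In *Cnmd*-high cells *Bmp7* was higher by 1.01 (2.15% of genes) and 0 of 8 ligands were called lower (2.71%). In *Cnmd*/*Col10a1*-high cells *Gdf10* was higher by 1.29 (2.29% of genes) and *Bmp2* was lower by 1.09 (a log2 ratio of -1.09, with 2.89% of genes called lower). *Col10a1*-high cells had 0 of 9 ligands higher (2.69% of genes) and *Bmp4* lower (2.72%), from 2.46 to 0.652 CPM on 18 and 14 UMIs, with 13 of the 18 in 1 cell. *Ifitm5*-high cells had 0 of 5 ligands called in either direction (2.41% higher and 2.96% lower), and *Bmp3* there had a log2 ratio of 0.46 (95% CI, 0.15 to 0.79). *Bmp5* had a log2 ratio of -0.94 in *Aspn*-high and -0.58 in *Cnmd*-high cells, both intervals below 0 and neither past the limit. The *Gdf10* value in *Cnmd*/*Col10a1*-high cells changed sign, to -0.47, when each cell was thinned at random to 2000 UMIs. Another such thinning ran the other way, with a *Gdf10* UMI in 3 of 163 of these cells at day 10 and 10 of 185 at day 14. The *Bmp4* value in *Col10a1*-high cells was -0.11 with the limits that define the groups at 0.5 of their value. At those limits the *Bmp2* value in *Cnmd*/*Col10a1*-high cells was -0.81. The *Bmp7* value in *Cnmd*-high cells lay below the limit under 4 alternatives, at 0.98 with cells high for another pair kept, 0.83 with all deposited barcodes, 0.82 without an upper limit on genes, and 0.50 in thinned cells. In the other thinning a *Bmp7* UMI was seen in 0.242% of *Cnmd*-high cells at day 10 and 0.936% at day 14. In the ungated cells *Bmp5* had a log2 ratio of -1.02.

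**Figure D3:**
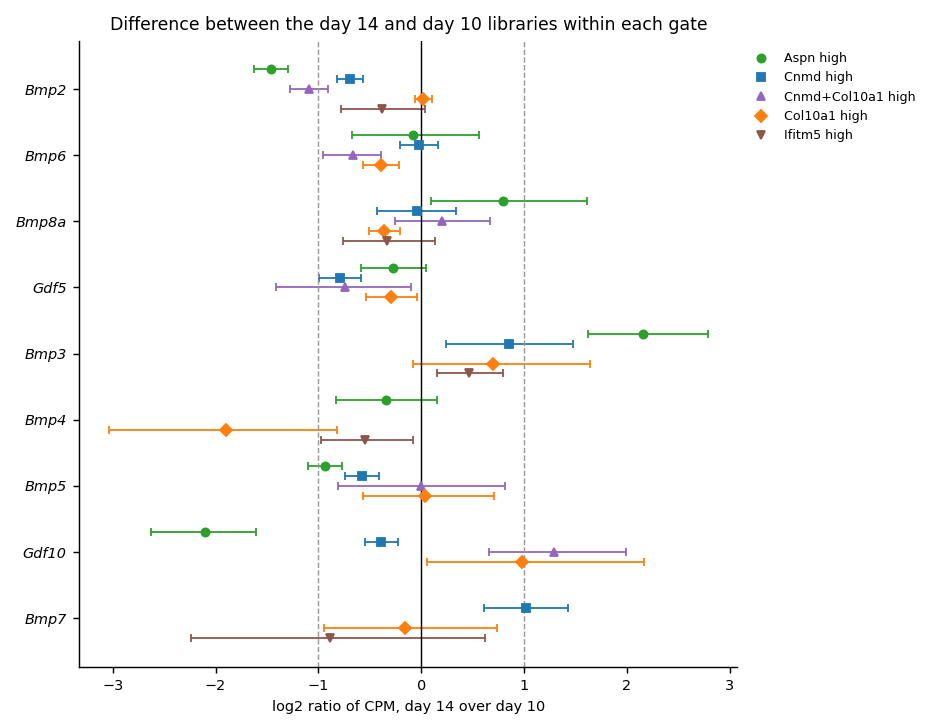
Log2 ratio of the day 14 to the day 10 level (x axis) for each ligand (y axis) within each group of cells (color and shape of the symbol), with bars for exact binomial 95% intervals and dashed lines at -1 and 1. *Bmp3* in *Aspn*-high cells lies at 2.16 and *Gdf10* in the same cells at -2.10, while *Bmp2* in *Col10a1*-high cells lies at 0.02.

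The *Ptprc* positive cells of day 7 held little of any ligand. *Bmp2* was at 5.27 CPM (95% CI, 4.65 to 5.94), *Bmp5* at 0.974 CPM, *Gdf5* at 0.676 CPM, *Bmp6* at 0.556 CPM, and the other 5 detected ligands at 0.159 CPM or less. All 6 ligands with enough UMIs were at least 2-fold lower than in the 90 gated cells of the library, where 37.2% of genes were, and 0 were higher (25.3% of genes). As a share of the gated level, *Bmp2* was at 7.62%, *Bmp5* at 4.55%, *Gdf5* at 2.80%, *Bmp6* at 1.61%, *Gdf10* at 1.58%, and *Bmp8a* at 0.905%. Matrix genes of skeletal cells lay in the same range, with *Col1a1* at 3.35%, *Ibsp* at 2.94%, *Col10a1* at 1.46%, and *Col2a1* at 1.24%. The 265 *Bmp2* UMIs came from 40 of the 6570 cells, with 77 in 1 cell. Of these UMIs, 171 lay in 44 cells in which *Col1a1* and *Col2a1* made up at least 100 of every 10000 UMIs, and without these cells the level was 1.90 CPM. The 173 *Ptprc* positive cells of day 14 had 24.2 CPM of *Bmp2*, 13.3 CPM of *Bmp3*, and 12.8 CPM of *Bmp8a*, beside 11454 CPM of osteoblast markers and 173941 CPM of neutrophil markers.

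The 354 ungated cells of day 7 had the highest *Bmp2* level of that library among groups of at least 50 cells, at 273 CPM (95% CI, 255 to 292). The 817 UMIs were in 59 cells, up to 175 in 1 cell, and the top 10% of cells held 94.7% of them. The group was mixed, with 34962 CPM of neutrophil, 49084 CPM of osteoblast, and 13629 CPM of chondrocyte markers. Divided by *Ibsp* at 50 of every 10000 UMIs, an osteoblast and late cartilage gene and a division chosen after the levels were seen, 48 cells with *Ibsp* had 55.7 CPM of *Bmp3*, 52.4 CPM of *Bmp4*, and 63.5 CPM of *Bmp8a*. The other 306 cells had 1.91, 2.86, and 2.86 CPM of these 3 ligands. *Bmp2* and *Bmp6* were at 324 and 61.1 CPM in the 306 cells, beside 273 and 53.5 CPM in all 354 ungated cells. At day 10 and day 14 the ungated cells with *Ibsp* had 13.7 and 21.6 CPM of *Bmp3*, 16.3 and 15.0 CPM of *Bmp4*, and 39.1 and 32.7 CPM of *Bmp8a*. The ungated cells without *Ibsp* had 4.53 and 8.86, 3.18 and 2.80, and 4.90 and 12.4 CPM, lower for each ligand on each day.

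Counts per cell show how the levels were spread. After thinning to 2000 UMIs, 26.5% of *Col10a1*-high cells had a *Bmp2* UMI at day 10 (95% CI, 22.3% to 31.0%) and 26.5% at day 14 (95% CI, 24.1% to 29.1%), leaving out 13 and 25 shallower cells. Without thinning these shares were 59.9% and 58.5%. In the *Ptprc* positive cells of day 7 the thinned share was 0.242% with 382 cells left out and the unthinned share 0.609%, at a median of 5045 UMIs against 17114 and 16952 UMIs in the *Col10a1*-high cells. In the 173 *Ptprc* positive cells of day 14, from the same library as the second of these groups, the *Bmp2* share was higher, 4.73% thinned (95% CI, 2.07% to 9.11%) with 4 cells left out and 9.25% unthinned, at a median of 9210 UMIs. Thinned *Col2a1*, a cartilage gene, was seen in 22.1% of the *Ptprc* positive cells of day 7 and 69.8% of those of day 14. *Bmp2* was uneven among the *Col10a1*-high cells, the top 10% of which held 59.6% of its UMIs at day 10 and 60.0% at day 14, with up to 70 and 85 UMIs in 1 cell. *Bmp8a* was more even, with 38.9% and 45.1% of its UMIs in the top 10% of cells and at most 10 and 8 UMIs in a cell. *Bmp8a* was seen in 13.5% and 11.0% of the thinned *Col10a1*-high cells (56.0% and 45.2% unthinned), in 0 of 6188 thinned *Ptprc* positive cells of day 7 (exact binomial upper bound 0.0596%, with 0.0761% unthinned), and in 2.96% of those of day 14 (95% CI, 0.967% to 6.77%, with 6.94% unthinned). *Bmp3* was seen in 9.46% and 18.4% of thinned *Ifitm5*-high cells (45.3% and 52.8% unthinned, at medians of 18267 and 15656 UMIs, with 1 and 2 cells left out), in 0 of the 6188, and in 2.96% of the thinned *Ptprc* positive cells of day 14. *Bmp4* was seen in 6.76% and 6.40% of the thinned *Ifitm5*-high cells and in 0.0162% and 0.592% of the thinned *Ptprc* positive cells of day 7 and day 14.

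Ligands could also be seen together in a cell. Among *Col10a1*-high cells with a *Bmp2* UMI, 51.3% had a *Bmp6* UMI at day 10, against 41.5% of all *Col10a1*-high cells, and the shares at day 14 were 42.3% and 35.8%. For *Bmp8a* the shares were closer, 58.6% against 56.0% at day 10 and 46.7% against 45.2% at day 14. In *Cnmd*-high cells *Bmp6* was seen in 26.8% and 29.6% of the cells with *Bmp2* and in 16.4% and 15.0% of all. Among *Ifitm5*-high cells with *Bmp4*, 64.0% and 52.9% had *Bmp8a*, against 48.0% and 33.7% of all. Deeper cells show more genes of every kind, so the pairs were also counted after thinning to 2000 UMIs, beside the number that the share of each gene alone would give. *Bmp2* and *Bmp6* were then seen together in 18 and 32 *Col10a1*-high cells, beside 12.4 and 24.1, and in 5 and 3 *Cnmd*-high cells, beside 2.50 and 1.09. *Bmp2* and *Bmp8a* were together in 14 and 34 *Col10a1*-high cells, beside 15.1 and 36.6. For *Bmp4* and *Bmp8a* in *Ifitm5*-high cells 1 and 2 such cells were left, beside 0.878 and 1.22.

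Across the 14 groups of at least 50 cells, the levels of *Bmp3* and *Bmp4* were the most alike of any pair of ligands (Pearson r = 0.94 of log2 of CPM plus 1), then *Bmp6* and *Gdf5* (0.87) and *Bmp2* and *Bmp8a* (0.82). *Bmp4* and *Gdf10* were the most opposed, at -0.62. These groups share libraries and include the same cell types at several days, so the values only describe the pattern. Of 13461 genes compared, with the 5 genes that define the groups passed over, those most like *Bmp2* were *Utrn* (0.97), *Irx3* (0.95), and *Tcf7l2* (0.94). Those most like *Bmp3* were *Rerg* (0.95), *Hhip* (0.95), and *Slc36a2* (0.94), and like *Bmp4* were *Slc36a2* (0.98), *Myl1* (0.98), and *Col22a1* (0.96). *Bmp8a* was most like *Phex* (0.98), *Gm26930* (0.97), and *Irx5* (0.96), and *Bmp6* most like *Ocm* (0.98), *Gm45397* (0.97), and *Aldoc* (0.97). For *Gdf5* the genes were *Ric8b* (0.95), *Ivns1abp* (0.94), and *Ccng1* (0.93), for *Bmp5* *Rian*, *Cyp26b1*, and *Pes1* (0.97 each), for *Gdf10* *Phlda2* (0.93), *Cmtm5* (0.92), and *Map7d3* (0.92), and for *Bmp7* *Camk2b* (0.91), *Rhbdl2* (0.90), and *Slc8a3* (0.90).

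Antagonists of the ligands were spread differently. Of 12 analysed, 10 had enough UMIs at day 10 and 11 at day 14. In *Col10a1*-high cells *Nog* alone was higher (11.4% and 9.87% of genes), and 8 and 9 others were at least 2-fold lower (16.7% and 18.5% of genes), with a median log2 ratio of -1.85 and -2.06 over the list. *Nog* in *Col10a1*-high cells had 71.3 CPM (95% CI, 65.3 to 77.7) and, on the later day, 76.9 CPM (95% CI, 73.2 to 80.7), with 81.2 and 56.5 CPM in *Cnmd*/*Col10a1*-high cells, where it was also the only antagonist called higher (5.97% and 5.45% of genes). The *Aspn*-high cells had 5 and 4 antagonists higher (17.3% and 16.2% of genes), which were *Chrd*, *Fst*, *Fstl3*, and *Nbl1* on both days and *Grem1* at day 10. In the same cells *Nog*, *Chrdl1*, and *Chrdl2* were lower on both days and *Sost* at day 14, 3 and 4 genes (9.24% and 10.3% of genes). *Fst*, the gene of follistatin, was at 91.2 and 96.0 CPM there against 39.1 and 25.3 CPM in the other gated cells. *Chrdl1* and *Chrdl2*, relatives of chordin, were higher in *Cnmd*-high cells on both days (4.93% and 4.28% of genes), *Chrdl2* at 13.2 and 27.8 CPM against 1.41 and 2.44 CPM. In *Ifitm5*-high cells, 8 antagonists were lower on each day (19.5% and 24.1% of genes) and *Sost*, the sclerostin gene of osteocytes, was higher at day 14 (6.73% of genes), at 17.2 CPM (95% CI, 13.3 to 21.8), with 0 UMIs and a limit of 2.30 CPM at day 10.

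Receptors, of which 9 were listed, all had enough UMIs on both days. *Bmpr1b*, a type I receptor of cartilage and its precursors, was at 7.01 and 7.59 CPM in *Aspn*-high cells against 1.18 and 1.28 CPM in the other gated cells, and *Acvr1*, another type I receptor, was at 63.4 and 61.6 against 25.1 and 22.5 CPM. They were the only receptors called higher in *Aspn*-high cells (17.3% and 16.2% of genes), and 0 were called lower there (9.24% and 10.3%). *Col10a1*-high cells had 1 receptor higher on each day (11.4% and 9.87% of genes) and 2 and 5 lower (16.7% and 18.5%), with *Bmpr1b* and *Ror2* lower on both days and *Bmpr1a*, *Acvr1*, and *Eng* at day 14. *Ifitm5*-high cells likewise had 2 and 5 lower (19.5% and 24.1% of genes), with *Bmpr1b* and *Ror2* again lower on both days. *Acvr2b* was the 1 receptor higher in *Ifitm5*-high cells on both days (9.2% and 6.73% of genes), on 5 and 17 UMIs, and *Acvrl1* and *Eng*, receptors known from vessels, were higher in the *Rgs5*-high cells of day 14 (18.8% of genes). Of the 4 SMAD genes, only *Smad9* was called in any group, higher in *Ifitm5*-high cells on both days (9.2% and 6.73% of genes). It was at 14.6 and 14.0 CPM there, against 2.15 and 2.06 CPM in all gated cells together, which include the *Ifitm5*-high cells. Among 10 target genes, *Msx2* had too few UMIs. *Id1* was at 231.5 and 228 CPM in *Cnmd*-high cells, against 67.4 and 57.0 CPM in the other gated cells, and at 38.9 and 38.1 CPM in *Aspn*-high cells. It was the 1 target called higher in *Cnmd*-high cells (4.93% and 4.28% of genes), and 2 and 1 targets were lower there (18.5% and 19.6%). In *Aspn*-high cells *Id1*, *Smad7*, and *Bambi* were lower on both days (9.24% and 10.3% of genes). *Msx1* and *Hey1* were higher there on both days and *Id3* at day 14 (17.3% and 16.2%). *Id3* was at 530 and 646 CPM in *Aspn*-high cells, against 291 and 295 CPM in *Cnmd*-high cells. *Bambi*, a decoy receptor that BMP signals induce, was at 309.8 and 316 CPM in *Cnmd*/*Col10a1*-high and 369 and 307 CPM in *Ifitm5*-high cells. It was called higher on both days in the first (5.97% and 5.45% of genes) and the second (9.2% and 6.73%). *Id3* and *Hey1* were lower in the first on both days (18.2% and 18.5%), and *Id1* in the second (19.5% and 24.1%), with *Smad7* and *Msx1* at day 10. *Dlx5*, an osteoblast factor, was higher in *Col10a1*-high cells on both days (11.4% and 9.87% of genes), at 71.8 and 71.7 CPM. *Smad6* was higher there at day 10 and *Bambi* at day 14, and *Msx1* was lower at day 10 (16.7%). The group with the most *Id1* was thus not the group with the most *Bmp2*, and the *Col10a1*-high cells had 99.6 and 91.6 CPM of *Id1*.

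**Figure D4:**
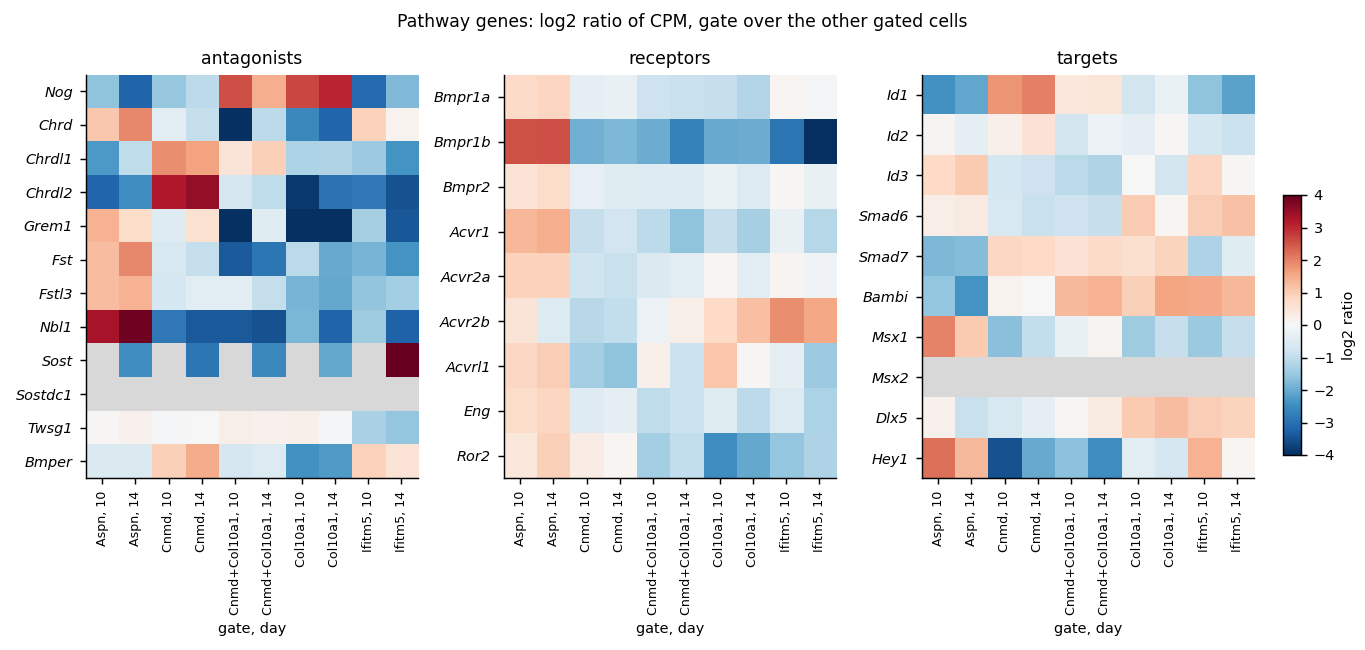
Log2 ratio of the level in each group to that in the other gated cells (color, limited to the range from -4 to 4) for antagonists, receptors, and target genes (rows) by group and day (columns), gray where fewer than 20 UMIs were counted. *Nog* is high in the columns of *Col10a1*-high and *Cnmd*/*Col10a1*-high cells, while *Fst*, *Nbl1*, and *Bmpr1b* are high in those of *Aspn*-high cells.

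Other ligands of the family, 15 listed, had enough UMIs in 8 cases at day 10 and 7 at day 14. In *Aspn*-high cells 4 of them were called higher on each day (17.3% and 16.2% of genes), and 0 and 1 lower (9.24% and 10.3%). *Gdf11* was higher there on both days, at 16.2 and 13.7 CPM against 3.30 and 3.76 CPM, and *Inhbb* was too, at 1.07 and 0.845 CPM. *Inhbb* was also higher in *Ifitm5*-high cells on both days (9.2% and 6.73% of genes). In *Rgs5*-high cells of day 14 both *Gdf11* and *Inhbb* were higher (18.8% of genes). *Inhba*, the activin A subunit, was at 425 and 274 CPM in *Aspn*-high cells and at 71.7 and 60.5 CPM in *Col10a1*-high cells. *Gdf15* was higher in *Col10a1*-high cells on both days (11.4% and 9.87% of genes), at 4.64 and 9.88 CPM, and in *Rgs5*-high cells at day 14, at 10.2 CPM. At day 10 it was also higher in *Cnmd*/*Col10a1*-high (5.97% of genes) and *Ifitm5*-high cells (9.2%). *Bmp1*, a protease of procollagen and chordin that is not a BMP ligand despite its name, was at 220.0 and 195 CPM in *Aspn*-high and at 381 and 413.5 CPM in *Ifitm5*-high cells, in each case higher than in the other gated cells.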

How the data were processed

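The authors made a single-cell library from sorted callus cells of each day and deposited 10x Genomics matrices of UMI counts per gene and cell, aligned to mm10. The submitters' processing notes name Cell Ranger 3.0, the file headers name 3.1.0, and the kit and software versions differ between the sources. No normalization had been applied to the deposited counts. Groups of days came from the labels.

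From these counts, cells with 500 to 5000 genes, at most 10% mitochondrial UMIs, and at most 5% hemoglobin UMIs were kept, which left 55187609, 113618580, and 154573230 UMIs and medians of 5056, 17370, and 15802 UMIs per cell at day 7, day 10, and day 14. No doublet caller was run, and the upper limit on genes and the setting apart of cells high for another pair are the only steps against droplets with several cells. UMIs were summed by group and day and given per 1000000 UMIs (CPM), with exact Poisson intervals, and ratios used 0.5 added UMIs and exact binomial intervals. UMIs come from the 3′ end of transcripts, so levels are compared within a gene. Groups under 50 cells and genes under 20 UMIs in a comparison were not called. Subsets of *Aspn*-high cells required 2 UMIs and 2 of every 10000. Likeness is Pearson's r over groups of at least 50 cells, among genes with at least 200 UMIs. The 3 highest genes are named, leaving out the 5 genes that define the groups. With 1 library per day no test over samples exists, and none was run. All 10 ligands are reported, and pathway genes are named from lists of other ligands, receptors, SMADs, targets, and antagonists. One gene of these lists is not reported here, and the counts leave it out. The ligands and these lists were chosen with earlier results of these data known.

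The alternatives were other limits for groups and cells, cells high for a pair kept, thinned cells, means over cells, no minimum of UMIs, and edgeR's TMM factors. The counting steps were tested on simulated data. Python 3.11.15, numpy 2.4.6, scipy 1.17.1, pandas 2.3.3, matplotlib 3.10.9, R 4.3.3, and edgeR 4.0.16 (TMM factors only) were used. Positions are from GENCODE's annotation of GRCm38, in which 32235 of the 32285 gene identifiers were found. *Bmp4*, *Bmp5*, *Bmp6*, and *Gdf5* overlap genes on the opposite strand, and whether the counting used strand is not given in the sources used here.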

Additional observations from a re-analysis of the deposited data

How the results depend on the processing

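With 1 library a day, nothing here separates time from library, and intervals of levels and ratios leave out the spread between cells and between mice. The count of ligands higher in *Aspn*-high cells was 0 under every alternative that gave a value, and those for *Col10a1*-high and *Ifitm5*-high cells ranged from 3 to 4 and from 2 to 4. In *Cnmd*-high cells the count rose from 1 to 2, with *Bmp7*, when all deposited barcodes were used, without an upper limit on genes, and with TMM factors. In *Cnmd*/*Col10a1*-high cells it rose from 1 to 2, with *Bmp8a*, under TMM factors. Differences between days numbered 7, but 4 in thinned cells and 11 without a minimum of UMIs. Ligands with the same highest group on both days numbered from 5 to 8. *Bmp2* was lost there with the limits for groups at 0.5 of their value, and *Bmp6* with means over cells. *Bmp3* and *Bmp4* were lost with these limits raised, where the *Ifitm5*-high cells, their highest group, were too few to be compared. Ligands lower in *Ptprc* positive cells fell from 6 to 1 in thinned cells, where 1 ligand had enough UMIs. The log2 ratio of *Gdf10* between days in *Cnmd*/*Col10a1*-high cells turned from 1.29 to -0.47 in thinned cells. Another random thinning left a *Gdf10* UMI in 3 of these cells at day 10 and in 10 at day 14. The cause of the change of sign, the random draw included, was not tested. *Bmp4* was no longer called in *Ifitm5*-high cells when thinned, where its log2 ratios were 5.37 and 4.24 on fewer UMIs, and *Bmp7* was called there on both days under 6 alternatives. With the limits for groups raised, *Ifitm5*-high and *Cnmd*/*Col10a1*-high cells numbered under 50 on a day and gave no value. Of 190 log2 ratios, 134 stayed within their interval, 55 moved beyond it in the same direction, and 1 changed sign. No paired analysis was possible because each day had 1 library.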
